A study of Drosophila sechellia x Drosophila simulans with 8 samples.

Results

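DesatF is a fatty acyl desaturase gene, 1 gene of the 14176 in the deposited gene table, taken by its name and followed here through all 8 libraries. The files place it on chromosome arm 3L, with 1 transcript, FBtr0214181, of 1306 bases. The libraries came from F1 hybrids of Drosophila sechellia and Drosophila simulans, so every cell carried 1 autosome set of each species. The 4 groups were female oenocytes, male oenocytes, female fat body and male fat body, with 2 libraries each, dissected from the dorsal abdomen of flies 10 days old. The labels leave out the direction of the cross, the number of flies behind a library and whether the libraries of a group came from separate dissections, so p-values measure the spread between these samples, which may be technical.

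Oenocytes are the abdominal cells that make cuticular hydrocarbons, the waxes that keep a fly from drying out and serve as mating signals. Desaturases put double bonds into the fatty acids from which these hydrocarbons are built, and elongases set their length. DesatF, known from D. melanogaster, adds the further double bond that turns monoenes into dienes, and its expression in female oenocytes depends there on the sex determination factor Doublesex. Females of D. melanogaster and D. sechellia carry dienes, while both sexes of D. simulans carry mainly monoenes. The fat body lies beside the oenocytes, stores lipid and makes yolk protein in females.

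The files gave 2 kinds of value for DesatF. The first was its level from the program kallisto, as TPM (transcript abundance scaled for length and to the same total in every library) and as estimated counts, which totalled 10732070 to 34474092 per library. The second was aligned reads sorted by allele, with 2275755 to 4642417 reads per library in all genes. The male oenocyte libraries differed in their estimated counts by little more than sampling noise (chi-square 1.08 per degree of freedom over 3286 transcripts, against 2.94 to 5.55 in the other groups). They were summed and counted as 1 sample unless stated otherwise. Their aligned reads, however, differed by more than sampling noise (7.69, against 10.5 to 13.5 in the other groups). Replicate 2 of both male groups stood apart from the other 6 libraries in its aligned DesatF reads, and the results that rest on those reads are given with and without these libraries.

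The tissue labels could be checked with few markers. Of 11 oenocyte symbols 1 was found in the files, Desat1, and it was high in every library (5214 to 12443 TPM) and higher in fat body than in oenocytes, so no marker other than the genes studied here checks the oenocyte label. Of 19 fat body symbols 4 were found, of which Lsp1gamma and Fbp2 lay between 0 and 0.25 TPM everywhere. The summed level of these 4 was 38887 and 40140 TPM in female oenocytes, 3461 and 3426 TPM in male oenocytes, 94815 and 93510 TPM in female fat body and 34719 and 32542 TPM in male fat body, most of it from the yolk protein gene Yp2 and from Adh. Muscle markers (3 of 13 found) summed to 6.03 to 10.2 TPM in oenocytes and 23.4 to 30.1 TPM in fat body. Of the 7 male reproductive tract symbols found, 4 accessory gland genes were at 0 in every library, and the summed level was 32.6 to 44.4 TPM in oenocytes, 125 and 122 TPM in female fat body and 324 and 287 TPM in male fat body, nearly all of it from the esterase gene Est-6. The accessory gland gene Acp62F (1.89 TPM) and the sperm gene dj (2.12 TPM) were highest in male fat body replicate 1. Of the ovary symbols 2 of 8 were found, summing to 0 to 0.38 TPM, and of the epidermis symbols 2 of 6, summing to 2.37 to 12.4 TPM. No haemocyte or neuron symbol was found.

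DesatF was highest in female oenocytes, followed by male oenocytes, female fat body and, lowest, male fat body. It stood at 2725 and 2544 TPM in female oenocytes, 145 and 143 TPM in male oenocytes, 30.4 and 25.7 TPM in female fat body and 4.3 and 4.0 TPM in male fat body. No 2 groups overlapped, which says little by itself with 2 libraries each and was not counted over all genes. Each step was far wider than the spread inside a group, where the higher library exceeded the lower by a factor of 1.01 to 1.18. Among the 14176 genes DesatF ranked 49th and 56th by TPM in the female oenocyte libraries, 571st and 578th in the male ones, 1592nd and 1714th in female fat body and 5853rd and 5871st in male fat body. In female oenocytes its transcript made up 0.272% and 0.254% of all TPM. In bulk tissue, fewer cells that express a gene and less RNA per cell cannot be told apart.

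**Figure D1:**
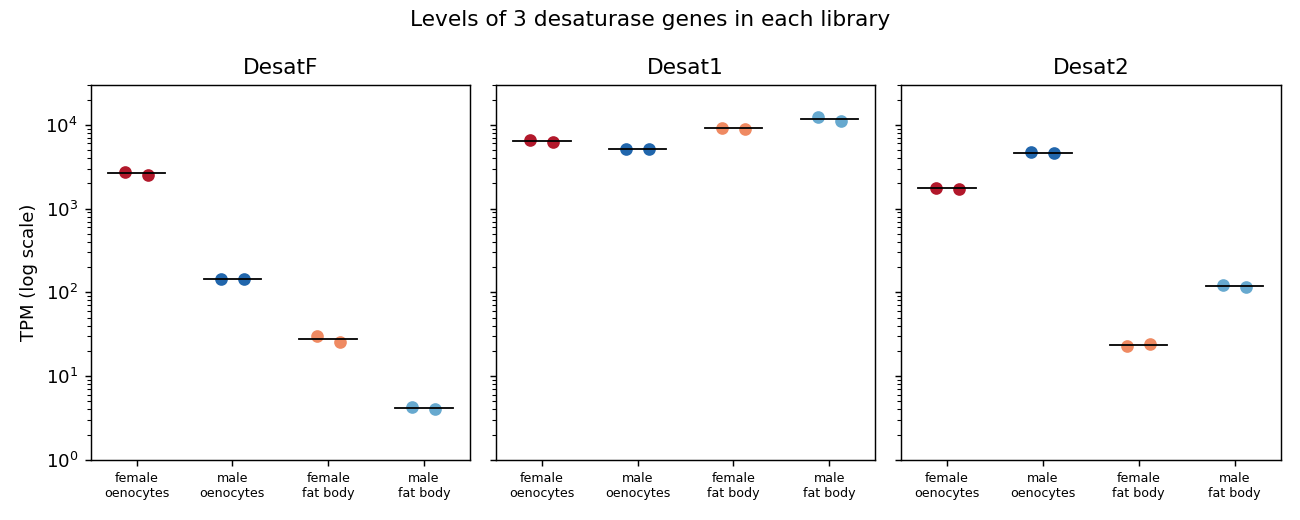
TPM on a log scale for DesatF, Desat1 and Desat2 in each library (points, 2 per group) with the group mean (line). DesatF spans 4.0 to 2725 TPM in an order in which oenocytes exceed fat body and females exceed males, whereas Desat2 is higher in males of both tissues and Desat1 stays between 5214 and 12443 TPM.

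Between the tissues, DesatF averaged 2634 ± 128 TPM in female oenocytes and 28.0 ± 3.28 TPM in female fat body (SD, n = 2 each), a ratio of 94.0. In males it averaged 144 TPM in oenocytes and 4.15 ± 0.212 TPM in fat body (SD, n = 2 for fat body), a ratio of 34.7. On normalised counts the log2 difference was 6.30 ± 0.0921 in females and 5.42 ± 0.0973 in males (SE), with adjusted p 2.88e-05 and 5.37e-05 by edgeR's quasi-likelihood test with Benjamini-Hochberg adjustment over 14279 transcripts. Oenocytes were higher than fat body in every library of both sexes. In these comparisons 26% of all transcripts tested were called in females and 21.4% in males, so a call by itself is common and is read here with the size of the difference. Among 4325 genes with at least 10 TPM in either female tissue, 2 had a larger ratio of oenocyte to fat body TPM (each plus 1), and among 4735 in males 30 did.

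The fat body values were small fractions of the oenocyte ones, at 1.06% in females and 2.88% in males. The most abundant transcript of the oenocyte libraries, which the files list under a GD number with no name, gave close fractions. It stood at 220986 and 229921 TPM in female oenocytes and at 2941 and 3138 TPM in female fat body, which is 1.35%. In males it stood at 263714 and 263675 TPM in oenocytes and at 7292 and 7977 TPM in fat body, which is 2.90%. Of 793 genes with at least 100 TPM in female oenocytes, 3 had a lower fat body fraction than DesatF, and of 788 such genes in males 18 did. The part of oenocyte RNA in the fat body values was not tested.

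Between the sexes, DesatF averaged 2634 ± 128 TPM in female oenocytes (SD, n = 2) and 144 TPM in male oenocytes, a ratio of 18.3 that ran from 17.6 to 19.0 over pairs of libraries. In fat body it averaged 28.0 ± 3.28 TPM in females and 4.15 ± 0.212 TPM in males (SD, n = 2 each), a ratio of 6.75 with a range of 5.98 to 7.59. The log2 differences on normalised counts were 4.21 ± 0.112 in oenocytes and 3.33 ± 0.0866 in fat body (SE; edgeR adjusted p 0.00144 and 0.000512). Females were higher in every library of both tissues. By the ratio of female to male TPM (each plus 1), DesatF ranked 17th of 4132 genes in oenocytes and 23rd of 4319 in fat body. These were genes with at least 10 TPM in either sex. Both calls were lost in aligned reads, where the differences were 1.87 and 1.75. Sex calls were rarer than tissue calls, with 2% of transcripts in oenocytes and 6.13% in fat body. On normalised counts, which carry a scaling between libraries that TPM lack, the fat body ratio was 10.0 where TPM gave 6.75. The fat body markers moved with sex as well, in opposite directions. Yp2 was higher in females in both tissues and made up most of the sum given above in females. In males nearly all of that sum was Adh. Adh, the other marker expressed, had 6548 and 6378 TPM in female fat body against 34665 and 32458 TPM in male fat body (log2 -1.79, edgeR adjusted p 0.0019), and 2536 and 2728 TPM in female oenocytes against 3405 and 3359 TPM in male oenocytes (log2 -0.37, edgeR adjusted p 0.194). Their part in the sex difference of DesatF was not tested.

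The sex difference was wider in oenocytes than in fat body, by 0.88 ± 0.124 on the log2 scale (SE; edgeR adjusted p 0.0446), against a median of 0.19 over all transcripts in the same test and 2.59% of transcripts called. In aligned reads it was 0.12 and did not pass the threshold (edgeR adjusted p 0.977, 0.0809% of genes called). The value ranged from 0.77 to 0.96 when 1 library was left out, but the call was lost without any 1 of the 4 fat body libraries or the 2 female oenocyte libraries (adjusted p 0.0965 to 0.156). In limma on log2(TPM + 1) it was 1.69, where the median of all genes was 0.64. The fat body level of DesatF was 1.06% of the oenocyte one in females and 2.88% in males. For the most abundant oenocyte transcript these fractions were 1.35% and 2.90%. The part of oenocyte RNA in the interaction was not tested.

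**Figure D2:**
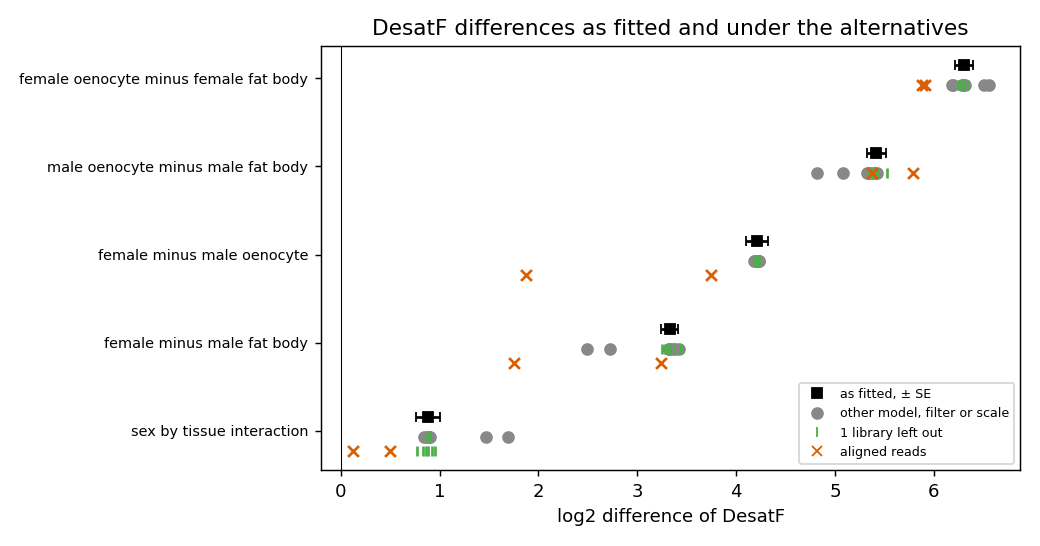
Log2 differences of DesatF for the 5 expression comparisons, as fitted with their standard error (squares), and under the alternatives, which stand just below the square where the adjusted p was under 0.05 and in a further row down where it was not. The tissue differences lie between 4.82 and 6.55 and keep their call throughout, while the sex differences leave it in aligned reads (crosses).

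The alleles of DesatF were far apart in every group. In the allele tables the reference allele is read as D. simulans and the alternative as D. sechellia, since across genes its share followed that of the D. sechellia copy in kallisto, with Pearson's r between 0.706 and 0.863 in the single libraries (465 to 810 genes each, which are not independent replicates). In female oenocytes 2205 and 1059 reads carried the D. sechellia allele, against 98 and 52 with the D. simulans allele. The D. sechellia share was therefore 95.7% (95% Wilson interval 94.8% to 96.5%) and 95.3% (93.9% to 96.4%). In male oenocytes 63 and 715 reads carried the D. sechellia allele, against 2 and 0, with shares of 96.9% (89.5% to 99.2%) and 100%, where 0 of 715 reads allows a D. simulans share of up to 0.420%. Intervals and such limits cover counting error alone and take each read as a separate molecule, which was not checked.

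Fat body held few allele-specific reads. Female fat body had 14 and 25 D. sechellia reads, against 1 and 0 D. simulans reads. Male fat body had 1 and 14, against 0 and 0, which over the 15 reads allows a D. simulans share of up to 20%. These libraries show the direction of the imbalance and little of its size. In all 8 libraries the D. sechellia allele held the large majority of the informative reads, although male fat body replicate 1 had only 1. Its share over arm 3L as a whole was 57.2% to 62.8%, and over all autosomes 62.5% to 65.0%.

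The ratio of D. sechellia to D. simulans reads was 21.8 in female oenocytes (exact interval 18.5 to 25.8), 389 in male oenocytes (107 to 3218, from 2 D. simulans reads) and 39.0 in female fat body (6.60 to 1579, from 1 such read). In male fat body 15 such reads against 0 gave an exact lower limit of 3.59. The fitted log2 ratios were 4.42 ± 0.279, 8.48 ± 0.590, 4.98 ± 0.742 and 6.13 ± 1.30 in the same order of groups (SE), with edgeR adjusted p of 4.97e-13, 2.25e-11, 9.32e-06 and 0.00062. Those of the last 3 groups rest on 0 to 2 D. simulans reads and depend on the prior count. Their SE come from the test statistic and are too narrow as a measure of counting error, for which the exact intervals above stand. Without male oenocyte replicate 1 the fitted ratio of that group was 12.55, without replicate 2 it was 4.92, and in female fat body it was 7.62 without replicate 1 and 3.68 without replicate 2, with the call kept in these 4 fits. In male fat body the call was lost without replicate 2. Of the genes tested 28%, 13%, 22.2% and 30.8% were called in these groups, most towards D. sechellia, with median log2 ratios of 0.73, 0.65, 0.69 and 0.79 over all genes.

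Set against its own chromosome arm, DesatF lay at the upper end of the D. sechellia shares. In female oenocytes it ranked 7th of 779 and 16th of 654 genes of 3L with at least 20 allele-specific reads, where the median share was 62.5% and 63.9%. In male oenocytes it ranked 3rd of 491 and 1st of 728, where genes with equal shares took the same rank. The 1st place is a share of 100%, the highest possible, in replicate 2, which stood apart in its aligned DesatF reads. Genes at 95% or more made up 0.962% to 3.06% of these 3L genes in the 4 oenocyte libraries. In the authors' deposited table of log2 allele ratios DesatF stood at 4.42 and 4.22 for female oenocytes, 3.28 and 7.17 for male oenocytes and 2.58 for female fat body replicate 2, with no value for the other fat body libraries, which held under 20 such reads.

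**Figure D3:**
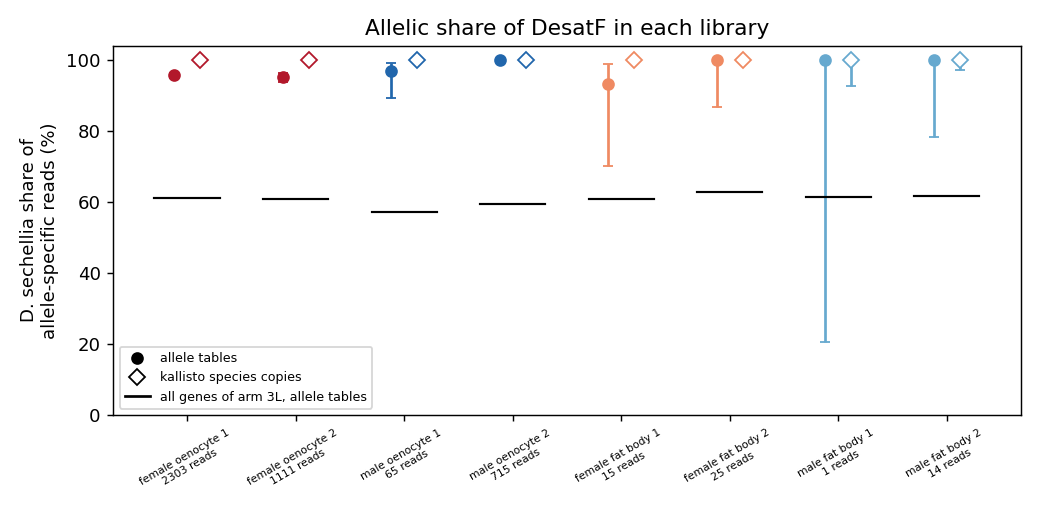
Share of D. sechellia among allele-specific reads of DesatF in each library, from the allele tables (filled points) and from kallisto's species copies (open diamonds), with 95% Wilson intervals, and the share over all genes of arm 3L (lines). DesatF lies at 93.3% to 100% in the allele tables, above the 57.2% to 62.8% of the arm in every library, with intervals that widen as reads fall to 1 in male fat body replicate 1, where the interval takes in the share of the arm.

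Kallisto, which estimated a D. sechellia and a D. simulans copy of the transcript, left the D. simulans allele almost no counts. In female oenocytes the D. simulans copy took 10.2 of 63705 and 56.5 of 82958 estimated counts, or 0.0161% and 0.068%. In male oenocytes it took 1.03 of 1869 and 2.05 of 3672, or 0.0549% and 0.0558%. In fat body it took 0 of 466 and 633 counts in females and 0 of 49 and 139 in males. The D. simulans share of the allele tables in female oenocytes, 4.26% and 4.68%, was thus far above that of kallisto in the same libraries. Both measures put nearly all DesatF transcript in these hybrids on the D. sechellia allele, and they differ on whether the remainder is at the percent level. In edgeR fits of kallisto's copies the log2 ratios were 9.95 to 12.59 over the 4 groups and did not pass the threshold (adjusted p 0.157 to 0.350).

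Whether the allelic ratio differed between sexes or tissues rests mainly on oenocytes, where reads were plentiful in females. The log2 ratio was lower in female oenocytes, with a difference from male oenocytes of -4.06 ± 0.741 (SE; edgeR adjusted p 0.00897, 0.0762% of genes called). The D. sechellia share was 95.7% and 95.3% in females, against 96.9% and 100% in males. The 96.9% rests on 65 reads, and its interval of 89.5% to 99.2% takes in both female shares. Its size rested on the male libraries. Without male oenocyte replicate 2 the difference was -0.50 (edgeR adjusted p 1), without replicate 1 it was -8.13, and with kallisto's copies it was 0.49. It was also lost without female oenocyte replicate 1 or male fat body replicate 1 and with all 8 libraries apart. The sex difference in fat body (-1.15 ± 1.30) and the tissue differences in females (-0.56 ± 0.829) and males (2.35 ± 7.71) did not pass the threshold (SE; edgeR adjusted p 1 each, with 0.0762%, 0.189% and 0.102% of genes called).

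The 2 male replicate 2 libraries stood apart in how many reads were aligned to DesatF. The allele tables held 3583 and 1721 aligned reads for female oenocytes, 106 and 928 for male oenocytes, 24 and 37 for female fat body and 3 and 18 for male fat body. As RPM, the share of all aligned reads on the scale of TPM, these were 772 and 507 for female oenocytes, 46.6 and 259 for male oenocytes, 8.31 and 9.92 for female fat body and 1.2 and 4.84 for male fat body. Male oenocyte replicate 2 was therefore 5.56 times replicate 1, and male fat body replicate 2 was 4.05 times replicate 1, where TPM gave factors of 0.988 and 0.930.

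In 6 of the 8 libraries DesatF took 0.211 to 0.342 times the share of aligned reads that it took of estimated counts, a factor that 2.61% to 5.33% of the genes with at least 20 estimated counts fell below. In male oenocyte replicate 2 this factor was 1.94 and in male fat body replicate 2 it was 0.953. Of 4706 genes, 1.13% moved as far between the male oenocyte libraries as DesatF did, and in male fat body 6.05% of 4776 did. The allele classes of these libraries differed too. Reads with an allele made up 77.0% and 77.8% of the DesatF reads in male oenocyte and male fat body replicate 2, against 61.3% to 67.6% in the other libraries except male fat body replicate 1, which had 3 reads. Reads with conflicting alleles made up 0.108% in male oenocyte replicate 2 and 2.83% in replicate 1, where all genes had 3.22% and 3.17%.

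**Figure D4:**
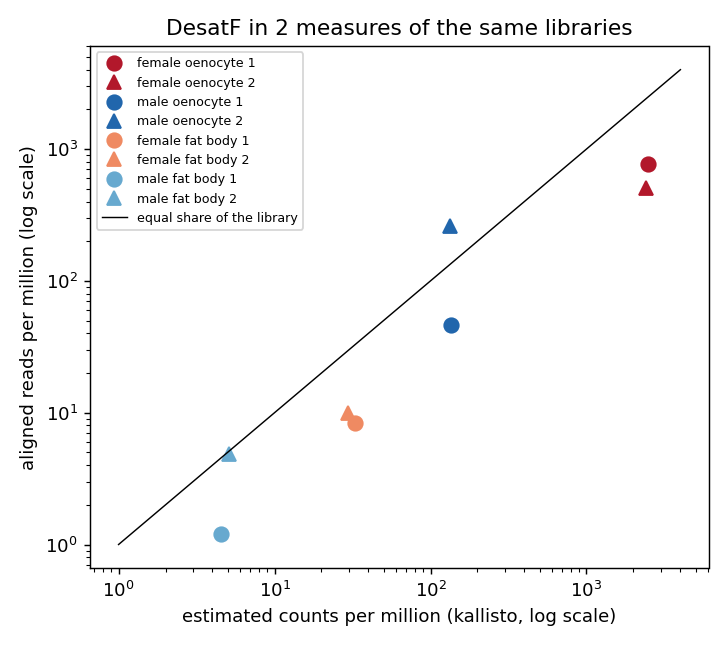
DesatF in aligned reads as RPM (vertical) against estimated counts as CPM, their share of all estimated counts (horizontal), in each library, both on log scales, with the line of equal shares. In 6 libraries DesatF lies at 0.211 to 0.342 times the line, while male oenocyte replicate 2 (1.94) and male fat body replicate 2 (0.953) lie above those 6.

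The comparisons were repeated on aligned reads. In aligned reads the tissue differences were close to those above (log2 5.91 ± 0.523 in females and 5.79 ± 0.577 in males, SE; edgeR adjusted p 0.000377 and 0.00086, with 28.8% and 22.1% of genes called). The sex differences were 1.87 ± 0.552 in oenocytes and 1.75 ± 0.544 in fat body and did not pass the threshold (edgeR adjusted p 0.490 and 0.231, with 0.337% and 1.09% of genes called). With both male replicate 2 libraries left out, an alternative chosen after their reads were seen, they were 3.74 and 3.24 in aligned reads (edgeR adjusted p 0.0507 and 0.138), nearer to the 4.21 and 3.33 from estimated counts. The tissue difference in males was then 5.37 (edgeR adjusted p 0.00552). Each male group holds 1 library in that fit, so the spread comes from the female libraries alone and the male libraries are assumed to vary like them.

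The other named desaturases followed other patterns. Desat1, which makes the monounsaturated precursors, had 6648 and 6242 TPM in female oenocytes, 5220 and 5214 TPM in male oenocytes, 9292 and 8822 TPM in female fat body and 12443 and 11116 TPM in male fat body. Desat2, a desaturase known in D. melanogaster for strain differences in female dienes, had 1776 and 1732 TPM in female oenocytes, 4679 and 4678 TPM in male oenocytes, 22.9 and 23.9 TPM in female fat body and 121 and 115 TPM in male fat body. The TPM of Desat2 were thus lower in females of both tissues, opposite to DesatF, and like those of DesatF they were low in fat body. The D. sechellia share of allele-specific reads was 54.2% to 67.3% for Desat1 and 90.4% to 100% for Desat2. Both ends of the Desat2 range lie in fat body, with 52 reads at 90.4% and 20 and 235 reads at 100%. In oenocytes, with 2570 to 18113 reads per library, Desat2 had 97.9% to 99.7%, where DesatF had 95.3% to 100%. Desat1 and Desat2 lie on 3R and are relatives of DesatF, so their values are uncertain where reads were shared between copies.

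Of 55 symbols of cuticular hydrocarbon genes and their regulators 4 were found in the files, namely DesatF, Desat1, Desat2 and tra, a splicing regulator of sex determination. In aligned reads, the measure that tested all 4, DesatF and Desat2 were higher in oenocytes than in fat body in both sexes (2 of 4, where 28.8% and 22.1% of all genes were called in females and males), with log2 differences of 6.13 in females and 6.38 in males for Desat2 (edgeR adjusted p 0.000437 and 0.0007). Desat1 and tra did not pass the threshold in either sex (log2 -0.44 and -0.32 in females, -0.26 and -0.19 in males). None of the 4 passed it between the sexes in either tissue in this measure, where Desat2 had -2.32 in oenocytes and -2.07 in fat body. With 0.337% and 1.09% of all genes called there, 0 of 4 is near the background.

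Genes with a pattern like that of DesatF were sought among 5005 genes with at least 10 TPM in a library, by the root mean square difference of log2(TPM + 1) over the 8 libraries after each gene's mean was subtracted. DesatF itself lay 3.31 from a flat pattern. The nearest gene was GD18652 on 3R, at 0.897 (Pearson's r 0.96), with mean TPM of 839 for female oenocytes, 194 for male oenocytes, 9.38 for female fat body and 3.89 for male fat body. The next was GD22398 on 2L, at 1.13 (r 0.96), with 416, 160, 21.6 and 3.88 TPM in the same groups. No file gives a name for either number. Both were chosen for their nearness to DesatF, so the order of the 4 groups that they share with it is no separate evidence. Both had a smaller sex ratio in oenocytes than DesatF. The 8 points share libraries, depth and 4 groups, and 9 of the genes had r of 0.95 or more.

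**Figure D5:**
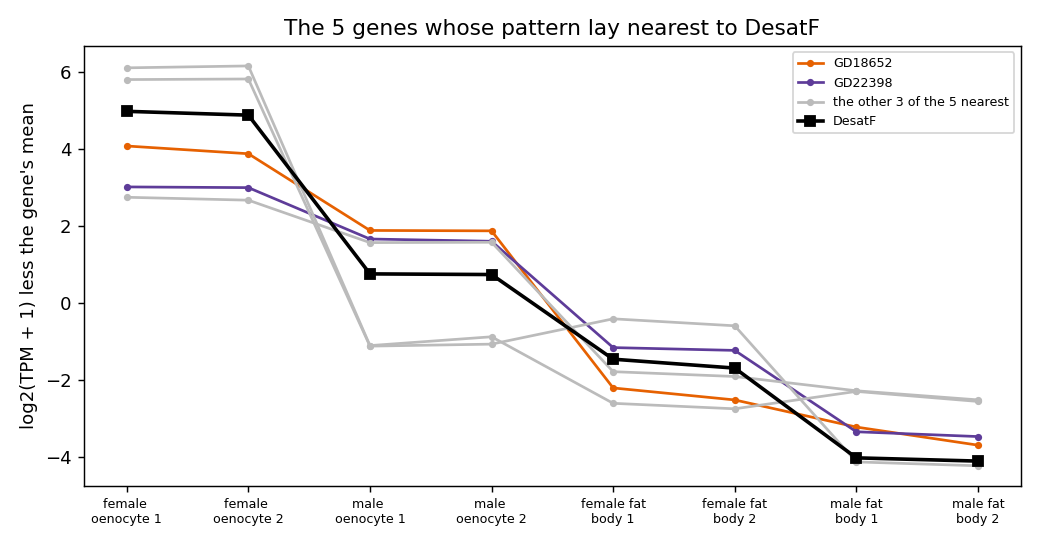
Log2(TPM + 1) less each gene's mean over the 8 libraries, for DesatF and the 5 genes nearest to it. DesatF, GD18652 and GD22398 fall in the same order of groups, and GD18652 lies nearest with a root mean square difference of 0.897.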

How the data were processed

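Estimated counts and TPM per transcript and species copy, and TPM per transcript and per gene, were deposited by the authors as output of kallisto, per the file headers. The deposited read counts per gene come in 4 classes (reference allele, alternative allele, no allele, conflicting). The authors' deposited log2 values equal log2 of (alternative + 5) over (reference + 5) for genes with 20 or more allele-specific reads. The submitters' processing notes name kallisto 0.44.0 and STAR 2.5.1b, with no role. The genome build, strand setting and variant filter are not given in the sources used here.

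Counts of both species copies of a transcript were added, then rounded, and the whole numbers went into edgeR 4.0.16 in R 4.3.3 (TMM, filterByExpr, glmQLFit, glmQLFTest, 1 term per group). Allele counts were tested with 2 columns per sample and a term per sample, for genes with 20 or more allele-specific reads in 2 or more samples, leaving out the X where males entered. The estimated counts of the transcript whose 8 TPM equal those of DesatF stand for the gene. Each SE is the size of the log2 value divided by the root of its F statistic. For allelic ratios with few D. simulans reads, and for their differences, it does not measure the counting error. Calls are at an adjusted p under 0.05. The male oenocyte libraries were summed as 1 sample, assumed to vary like the others, which left 3 residual degrees of freedom. DESeq2 1.42.0 and limma 3.58.1 (on log2(TPM + 1) and log2(TPM + 0.1), mean TPM of 1 or more) were alternatives. Named genes were DesatF, the 5 nearest patterns (at most 2 unnamed ones printed), Desat1, Desat2 and list members. The gene, the lists and the tests were chosen with earlier results of these data known. No sequence was analysed here.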

Additional observations from a re-analysis of the deposited data

Results flagged for a closer look

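The sex difference of DesatF expression differed between the tissues, by 0.88 on the log2 scale in the interaction test on normalised counts. Those counts gave ratios of females to males of 18.5 in oenocytes and 10.0 in fat body, where TPM gave 18.3 and 6.75. The call of the interaction was lost in 8 of 17 alternatives. The part of oenocyte RNA in the fat body values was not tested. In oenocytes, with the male libraries summed, the fitted allelic log2 ratio of the gene differed between the sexes by -4.06 (female minus male). It came from 3264 D. sechellia and 150 D. simulans reads in females, against 778 and 2 in males. Of the male reads, replicate 2 held 715 and 0, and without that library the difference was -0.50. This sex difference fell short of the threshold in 8 of 17 fits under other settings. In 1 further fit, with kallisto's species copies, its sign turned (0.49). The male libraries were summed for their estimated counts, but their aligned reads differed by more than sampling noise (chi-square 7.69 per degree of freedom).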

How the results depend on the processing

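Both tissue differences in expression kept their direction and call in all 18 alternatives (4.82 to 6.55 on the log2 scale), and both sex differences in 16 of 18, the exceptions being aligned reads with all libraries (1.87 in oenocytes, 1.75 in fat body) and without both male replicate 2 libraries (3.74 and 3.24). The cause was not tested. The tissue by sex interaction was lost in 8 of 17: in aligned reads (0.12, and 0.50 without both male replicate 2 libraries) and in 6 of the 8 fits that left out 1 library (0.77 to 0.96 over the 8). Those 6 had fewer residual degrees of freedom. In limma on log2(TPM + 1) the fat body sex difference was 2.49, where the median of all genes was -0.63.

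Leaving out both male replicate 2 libraries, and filterByExpr for alleles, were chosen after the data were seen. With kallisto's species copies the allelic log2 ratios were 11.25, 10.75, 12.59 and 9.95 in female oenocytes, male oenocytes, female fat body and male fat body, none past the threshold. In male fat body the call was also lost with DESeq2 (4.59), without both male replicate 2 libraries (3.52) and without replicate 2 alone; over the 8 libraries left out in turn the value ran from 3.74 to 6.78. The sex difference of the allelic ratio in oenocytes was lost with all 8 libraries apart (-3.93), with DESeq2 (-4.18), with the groups compared alone (-3.94), without both male replicate 2 libraries (-0.50) and in 3 of the 8 that left out 1 library (-8.13 to -0.50 over the 8), and turned to 0.49 with the species copies. The fat body sex difference of the ratio turned to 0.67 with DESeq2, 2.64 with the species copies and 1.41 without both male replicate 2 libraries, and ran from -2.44 to 1.45 with 1 library left out. The tissue difference ran from -3.20 to 0.74 in females and from -1.02 to 6.53 in males with 1 library left out. Fits of the fat body groups alone gave no ratio, as DesatF had too few reads there, and the interaction with the groups compared alone is the fit with all 8 libraries apart.

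Replicate numbers were not shown to pair samples (correlation of deviations -0.0123 to 0.0957 between groups). The replicate block, fitted with all 8 libraries apart, changed no call against that fit without the block; the sex difference of the allelic ratio in oenocytes, lost in both, was -3.85 with it (adjusted p 0.0667).

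The share called over the alternatives was 18.8% to 69.2% and 16.3% to 54.9% between tissues in females and males, 0.126% to 10.7% and 0.14% to 71.4% between sexes in oenocytes and fat body, and 0% to 46.2% for the interaction. For allelic ratios it was 10.6% to 34.1%, 5.12% to 55.6%, 6.32% to 50.6% and 9.37% to 40.6% in the 4 groups named above, and at most 0.504% for their differences.

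Of the 5 genes nearest to DesatF, 3 remained with a pseudocount of 0.1 and 1 with Pearson's r, 4 without any 1 library, and GD18652 stayed nearest except under r. Depth limits the fat body ratios, which rest on 40 and 15 allele-specific reads in females and males.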
